A study of Mus musculus with 64 samples.

Results

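A group of protein-quality and cold-response genes was followed in a mouse brain RNA-seq series on a single injection of psilocybin. The 10 genes were 8 heat shock chaperones and co-chaperones (Hspa1a, Hspa1b, Hspa5, Hspa8, Hsph1, Hsp90aa1, Dnajb1 and Bag3) and 2 cold-inducible RNA-binding proteins (Cirbp and Rbm3), found by symbol among the 55401 genes of the count table. All 10 were among the 18971 genes that passed the filter on low counts. Chow-fed male C57BL/6J mice, housed in groups, received 3 mg/kg psilocybin (the prodrug of the serotonin receptor agonist psilocin) or isotonic saline intraperitoneally at 10 weeks of age. Prefrontal cortex (PFC) and hypothalamus were taken from each of the 32 mice either 3 h or 4 weeks later, which gave 8 groups of 8 libraries. No group carried a transgene or a deletion. Mice taken at 4 weeks were older at harvest and were harvested on other days than those taken at 3 h, so time after injection, age and harvest day cannot be told apart.

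Heat shock proteins bind unfolded or aggregating proteins and help them to refold. Transcription of the inducible members is driven by heat shock factor 1 (HSF1), which binds heat shock elements in their promoters after heat, proteotoxic or oxidative stress, whereas the endoplasmic reticulum (ER) chaperone Hspa5 (BiP) answers to the unfolded protein response. Cirbp and Rbm3 encode small RNA-binding proteins whose transcripts rise with mild cooling and are lowered by warming, and in rodents both groups of transcripts are known to follow the daily rhythm of body temperature, so that heat shock genes and Cirbp run in opposite phase. Per the paper's methods, all mice were killed at the same hour of the morning, to keep daily variation in gene expression small. Body temperature of these mice was not among the measurements used here. In a separate cohort the paper observed no effect of psilocybin on rectal temperature.

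Of the 64 libraries, 62 had at least 1000000 counts and were used (8061033 to 70361839 counts, median 18287978.5). The other 2, a PFC psilocybin 4-week library and a hypothalamus saline 3-h library, held 211111 counts or fewer. Summed cortical excitatory neuron markers lay between 1419 and 2030 counts scaled to library size (CPM) in PFC libraries and between 96.6 and 215 in hypothalamus libraries, and hypothalamic neuron markers between 0.938 and 14.1 in PFC and between 340 and 2722 in hypothalamus, so each region carried its label's markers. For none of the 11 marker lists (neurons of cortex, hypothalamus, striatum and thalamus, astrocytes, oligodendrocytes, microglia, endothelium, choroid plexus, blood, and wound healing and immune genes) were the 3-h and 4-week libraries of a region and treatment separated. Single markers did differ with time. The median log2 difference of 3 h over 4 weeks was 0.26 for the 6 microglial markers in saline PFC (1 called higher, 3 at an unadjusted p under 0.05), 0.32 in psilocybin PFC (1 called higher, 4 at that p) and 0.32 for the 5 astrocyte markers in psilocybin PFC (1 called higher, 3 at that p), and in hypothalamus these lists had no gene called. Of the other lists, 1 hypothalamic neuron marker was called lower at 3 h in saline PFC and 1 endothelial marker higher in saline hypothalamus. Uncalled lists also shifted. In psilocybin hypothalamus the median was 0.41 for endothelial markers (3 at that p), -0.29 for hypothalamic neuron markers (3) and -0.19 for microglial markers (2). It was -0.84 for choroid plexus markers in saline hypothalamus (2) and -0.85 for striatum markers in saline PFC (2). Their part in the time differences below was not tested.

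Across the 11 lists and 8 groups, 24 of 88 combinations had a library above the rest of its group by more than Dixon's 95% limit, which chance exceeds in about 1 of 20, and 17 libraries were involved. Among the saline libraries, hypothalamus 4-week replicate 6 had 114 CPM of wound healing and immune markers (others 9.63 to 25.4), hypothalamus 4-week replicate 3 had 1241 of choroid plexus markers (36.6 to 106), and PFC 4-week replicate 6 had 1184 of striatum markers (118 to 479). The number of members called in the saline comparison of 3 h with 4 weeks was 5 without either hypothalamus library, as with all, and 3 instead of 4 without the PFC library (Hsph1 lost, adjusted p = 0.0669). PFC psilocybin 3-h replicate 5 had 103 CPM of wound healing and immune markers (11.4 to 33.3), and without it 1 member in place of 3 was called in psilocybin PFC (Dnajb1, adjusted p = 0.0423). This drop was not particular to that library. The count was also 1 without 3-h replicate 1 or 2, or 4-week replicate 1, 2, 4, 5, 7 or 8. Replicate 5 of the hypothalamus psilocybin 4-week group stood apart in several lists and in 4 of the members. Its summed hypothalamic neuron markers were 2722 CPM against 461 to 798 in the other libraries of its group, its blood markers 747 against 70.7 to 297, its microglial markers 416 against 229 to 328, its thalamus markers 1391 against 593 to 1024 and its oligodendrocyte markers 9360 against 5685 to 8600. Results that this library moves are given with and without it below, and what part these markers play in them was not tested.

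The genomic positions (GRCm38, GENCODE annotation) and the reads' uniqueness differed among the 10 genes. Hspa1a (ENSMUSG00000091971.3, chr17:34969190-34972156) and Hspa1b (ENSMUSG00000090877.3, chr17:34956436-34959238) are neighbours on the minus strand of chromosome 17 and encode the stress-inducible HSP70. Of the 52-base windows of the annotated Hspa1a transcripts, 58.3% occur identically in Hspa1b, and 61.8% of the Hspa1b windows occur in Hspa1a, so their separate counts are uncertain. Windows shared with other genes made up 38.9% for Hspa8, mostly with the pseudogene Gm15459, 47.1% for Hsp90aa1, mostly with Gm12346, and 9.49% for Rbm3, mostly with Rbm3-ps. For Dnajb1 the share was 0.286%, and Hspa5, Hsph1, Bag3 and Cirbp shared none. How reads with several matches were counted is not given in the sources used here. Rbm3 (chrX:8138975-8145697) overlaps the antisense gene Rbm3os, whose median count was 6, against at least 302 for Rbm3 in every library used. Bag3 overlaps 2610306O10Rik on the same strand (median count 1) and Hspa1a overlaps Gm20481 on the opposite strand (median count 0).

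Promoters are shown for the genes whose regulation is best known by a sequence motif. Some members, not all, differed with time or were correlated across mice (below), and a link of these motifs to those results was not tested. The promoters are RefSeq sequences of GRCm38.p6, from 250 bases before to 50 bases after the annotated start. A promoter was matched for 7 of the 10 genes (Hspa1a, Hspa1b, Hspa5, Hsph1, Dnajb1, Bag3 and Cirbp). Capitals mark a heat shock element in Hspa1b and Hsph1, the ER stress element in Hspa5 and the mild cold response element in Cirbp.
Hspa1b, chr17:34959189-34959488, minus strand: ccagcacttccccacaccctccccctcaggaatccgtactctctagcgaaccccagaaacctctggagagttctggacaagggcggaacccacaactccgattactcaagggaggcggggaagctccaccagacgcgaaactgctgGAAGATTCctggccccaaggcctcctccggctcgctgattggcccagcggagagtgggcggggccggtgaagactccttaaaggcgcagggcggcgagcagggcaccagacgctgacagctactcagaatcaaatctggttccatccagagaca
Hsph1, chr5:149636287-149636586, minus strand: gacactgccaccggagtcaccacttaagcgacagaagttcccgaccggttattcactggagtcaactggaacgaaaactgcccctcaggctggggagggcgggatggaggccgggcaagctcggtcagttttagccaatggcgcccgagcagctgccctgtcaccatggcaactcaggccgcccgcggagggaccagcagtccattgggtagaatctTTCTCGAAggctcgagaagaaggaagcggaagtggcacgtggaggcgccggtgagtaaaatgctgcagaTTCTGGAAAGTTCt
Hspa5, chr2:34771840-34772139, plus strand: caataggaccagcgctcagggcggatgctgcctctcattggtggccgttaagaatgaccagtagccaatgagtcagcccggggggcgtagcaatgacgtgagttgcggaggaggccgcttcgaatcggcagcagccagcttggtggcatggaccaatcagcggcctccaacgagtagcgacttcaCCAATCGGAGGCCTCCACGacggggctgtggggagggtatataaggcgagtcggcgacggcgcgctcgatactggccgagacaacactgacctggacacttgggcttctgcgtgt
Cirbp, chr10:80167589-80167888, plus strand: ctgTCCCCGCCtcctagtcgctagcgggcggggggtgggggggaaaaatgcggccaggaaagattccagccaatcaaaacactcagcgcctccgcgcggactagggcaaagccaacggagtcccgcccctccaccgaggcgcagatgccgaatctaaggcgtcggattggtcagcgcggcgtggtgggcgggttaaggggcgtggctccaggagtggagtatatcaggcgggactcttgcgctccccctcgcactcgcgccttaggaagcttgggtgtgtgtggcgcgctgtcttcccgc

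A heat shock element of 2 units (GAANNTTC or TTCNNGAA, searched on both strands) occurred in 15.1% of all 32851 promoters of this length. It was found in Hspa1a and Hspa1b, whose 300 bases differ at 4 positions and hold the same match 104 bases before the start, in Bag3 42 bases after it, and 3 times in Hsph1. In Hsph1, 2 of these matches overlap as an element of 3 units (TTCNNGAANNTTC or GAANNTTCNNGAA) that 0.603% of promoters hold. The ER stress element (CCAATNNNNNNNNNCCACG) stood 65 bases before the start of Hspa5 and occurs in 0.119% of promoters. The octamer TCCCCGCC, described as a mild cold response element, stood 247 bases before the first start of Cirbp, occurs in 5.38% of promoters, and was also matched in Hspa1a, Hspa1b, Bag3 and the second start of Dnajb1. No heat shock element with these letters was in the windows of Dnajb1, Hspa5 or Cirbp. These matches are descriptions of sequence and were not tested for binding.

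Expression levels spanned more than 2 orders of magnitude. On the scale of RPKM, which is CPM divided by annotated gene length, group means ran from 237 to 284 for the constitutive HSP70 gene Hspa8 and from 161 to 218 for the cytosolic HSP90 gene Hsp90aa1. They ran from 69.1 to 114 for Hspa5 and from 47.8 to 63.0 for Hsph1, an HSP110 nucleotide exchange factor. Dnajb1, the HSP40 co-chaperone that delivers substrates to HSP70, ran from 15.2 to 26.8, Cirbp from 16.4 to 37.4, and Rbm3 from 6.14 to 11.8. Lowest were Bag3, the HSP70 co-chaperone of aggregate clearance (2.88 to 6.27), and the inducible Hspa1b (0.569 to 2.23) and Hspa1a (0.716 to 1.34). The ranges of Dnajb1 and Cirbp overlapped, as did those of Rbm3 and Bag3 and of Hspa1a and Hspa1b. Libraries spread least for the abundant genes. Within groups the coefficient of variation was 3.22% to 16.4% for Hspa8, 20.2% to 66.0% for Hspa1b and 21.5% to 66.1% for Hspa1a, where a library held as few as 12 counts.

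**Figure D1:**
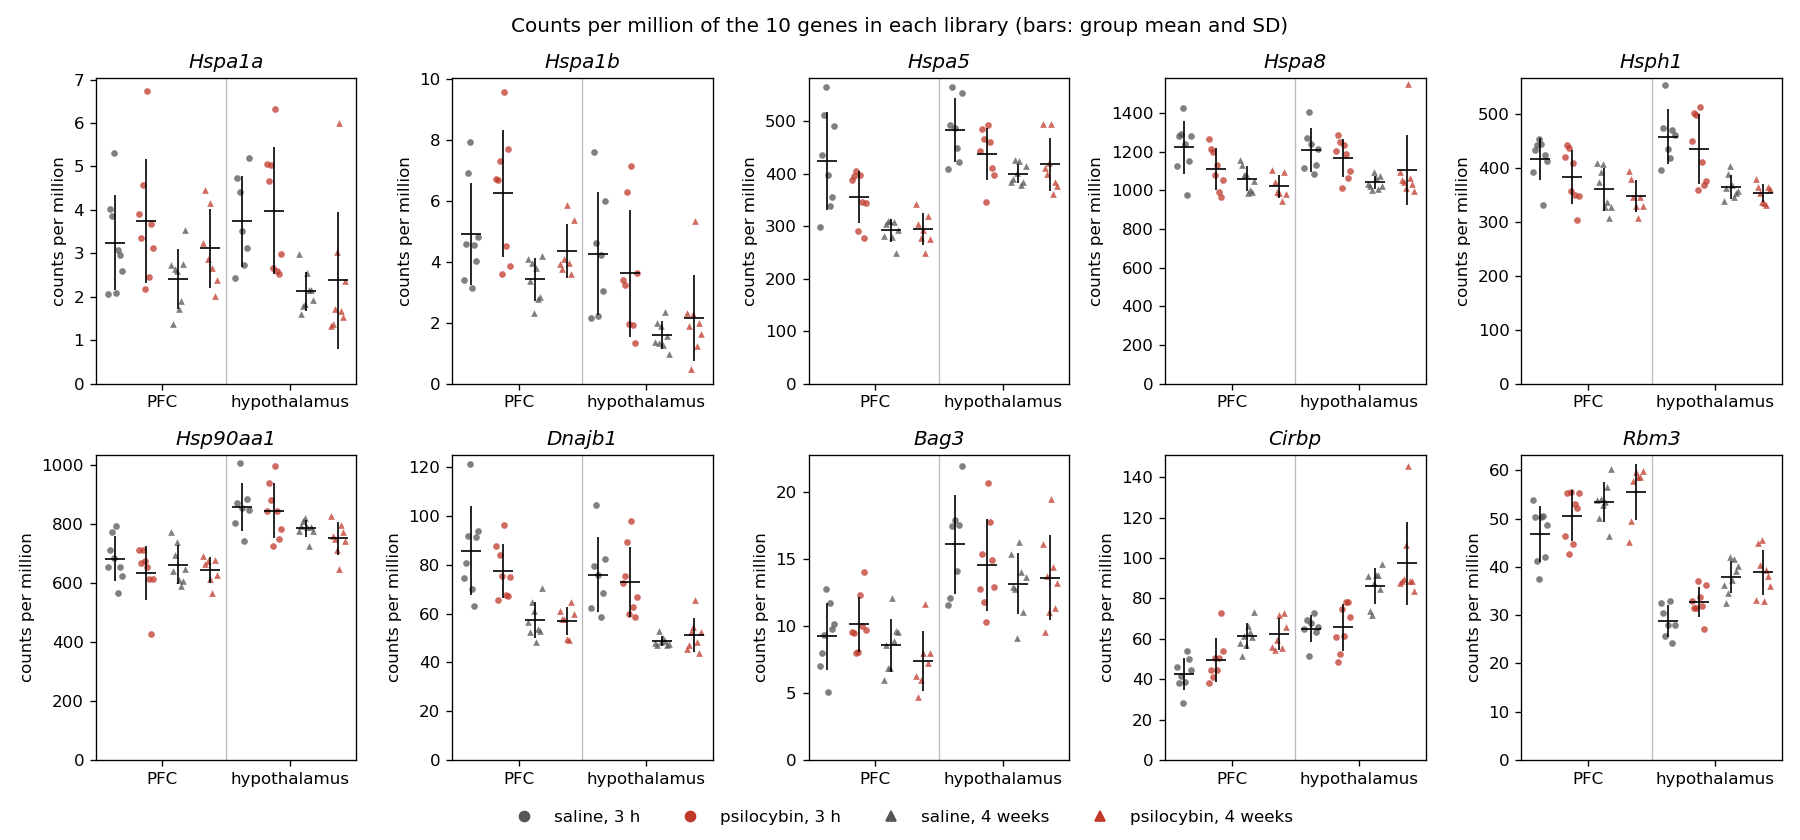
CPM (linear axis from 0) of each of the 10 genes in each of the 62 libraries, with bars for the group mean and SD. Grey points are saline and red points psilocybin, circles 3 h and triangles 4 weeks, with PFC left and hypothalamus right. Dnajb1 lies higher and Cirbp lower at 3 h than at 4 weeks in both regions, while grey and red points of the same time intermingle.

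The comparison of 3 h with 4 weeks after injection, made within each region and treatment, gave differences for several members in each of the 4 comparisons. Dnajb1 was higher and Cirbp lower at 3 h in all 4 comparisons. Several other chaperones were also higher at 3 h, each in some comparisons and not in others. Of the 10 genes, 4 passed the threshold (p under 0.05 in edgeR's quasi-likelihood test after the Benjamini-Hochberg method was applied over all 18971 genes, called adjusted p here) in saline PFC, where 4.72% of all genes did. In psilocybin PFC 3 passed (5.96% of all genes), in saline hypothalamus 5 (0.685%) and in psilocybin hypothalamus 3 (1.16%). The 10 genes were chosen with earlier results of these data known, so these shares are not an independent test of the group.

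Dnajb1 showed the most uniform difference. In saline hypothalamus its level ran from 58.5 to 105 CPM at 3 h (median 75.9) and from 47.0 to 52.7 at 4 weeks (median 48.1), so all 3-h libraries lay above all 4-week libraries. The difference was 56.1% (log2 fold change 0.64 ± 0.11 SE, adjusted p = 0.000276). In psilocybin hypothalamus it ran from 58.5 to 98.2 CPM at 3 h (median 69.7) and from 43.8 to 65.7 at 4 weeks (median 50.3), with overlap, and rose by 41.8% (log2 0.50 ± 0.11, adjusted p = 0.005). In saline PFC the range was 63.1 to 121 CPM at 3 h (median 86.0) and 48.3 to 70.7 at 4 weeks (median 55.1), a rise of 48.9% (log2 0.57 ± 0.11, adjusted p = 0.000331). In psilocybin PFC the 3-h libraries (65.4 to 96.3 CPM, median 75.3) just cleared the 4-week libraries (49.4 to 64.6, median 57.6), with a rise of 35.0% (log2 0.43 ± 0.11, adjusted p = 0.0113).

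Of the 10 genes, 1 (Dnajb1) had groups that did not overlap in psilocybin PFC, where 0.965% of all genes tested did so, 1 (Dnajb1) in saline hypothalamus (0.859% of all genes), 1 (Cirbp) in psilocybin hypothalamus (0.348%) and 0 in saline PFC (0.432%). Within the 2 RNA extraction pools of a region, which hold cages 1 to 4 and cages 5 to 8, the log2 difference of Dnajb1 was 0.65 and 0.49 in saline PFC, 0.42 and 0.45 in psilocybin PFC, 0.75 and 0.55 in saline hypothalamus and 0.57 and 0.45 in psilocybin hypothalamus. All 8 were in the same direction. In fits to cages 5 to 8 alone no member passed in any of the 4 comparisons.

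The inducible HSP70 genes were low and variable. Hspa1b in saline hypothalamus ran from 2.14 to 7.61 CPM at 3 h (median 4.24) and from 0.976 to 2.37 at 4 weeks (median 1.46), and its 172% higher level at 3 h passed (log2 1.44 ± 0.31, adjusted p = 0.00726). The groups overlapped in their outer libraries, and without saline 3-h replicate 3 the adjusted p was 0.0503. In the same comparison Hspa1a, which shares much of its transcript sequence with Hspa1b, was 73.4% higher and did not pass (log2 0.79 ± 0.26, adjusted p = 0.198). In psilocybin hypothalamus the Hspa1b difference was log2 0.71 ± 0.29 (adjusted p = 0.2) and that of Hspa1a log2 0.70 ± 0.25 (adjusted p = 0.146), and neither passed. Without hypothalamus psilocybin 4-week replicate 5 (with 6.00 CPM of Hspa1a against 3.04 or less in the rest of its group, and 5.34 CPM of Hspa1b against 2.31 or less) both passed, at log2 1.06 for Hspa1a (adjusted p = 0.0098) and 1.10 for Hspa1b (adjusted p = 0.0481). The number of genes called in psilocybin hypothalamus was then 5 in place of 3. In PFC the log2 differences of the pair lay between 0.29 and 0.52 and did not pass.

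Hsph1, which recharges HSP70 with ATP, ran from 396 to 553 CPM at 3 h (median 460) and from 338 to 404 at 4 weeks (median 360) in saline hypothalamus. In psilocybin hypothalamus it ran from 358 to 513 CPM (median 430) and from 332 to 379 (median 357). The rises of 1.26-fold (log2 0.33 ± 0.07, adjusted p = 0.00472) and 1.23-fold (log2 0.30 ± 0.07, adjusted p = 0.0089) both passed, although single libraries overlapped. In saline PFC the rise was 16.1% (adjusted p = 0.0456), a call made in 2 of 10 alternative settings, those with DESeq2 or its size factors. It was not made with the cage as a replicate block (adjusted p = 0.0676) or in the other 7 settings, where the adjusted p reached 0.448. With 1 of 17 libraries left out in turn its adjusted p lay between 0.0206 and 0.0981, and the call held in 5 of these, without saline 3-h replicate 1 or 6, saline 4-week replicate 3 or 4, or hypothalamus psilocybin 4-week replicate 5. In psilocybin PFC it was 9.04% and did not pass (adjusted p = 0.304).

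Hspa8 was 15.3% higher at 3 h in saline PFC (adjusted p = 0.0518) and 16.1% higher in saline hypothalamus (adjusted p = 0.157), and the differences under psilocybin were 7.92% in PFC and 5.60% in hypothalamus. None of the 4 passed. Hsp90aa1 was the member with the smallest differences in PFC, 3.30% in saline and -2.78% in psilocybin, and 9.46% and 12.6% in hypothalamus, where the adjusted p was 0.663 and 0.172. Bag3 passed only in psilocybin PFC, where it ran from 7.96 to 14.0 CPM at 3 h (median 9.62) and from 4.68 to 11.6 at 4 weeks (median 7.21), a rise of 40.9% (log2 0.49 ± 0.15, adjusted p = 0.0391). With 1 of 16 libraries left out in turn the adjusted p lay between 0.0145 and 0.103, and the call held in 6 of these, without psilocybin 3-h replicate 3, 4, 6 or 8, psilocybin 4-week replicate 6, or hypothalamus psilocybin 4-week replicate 5.

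Hspa5 (ENSMUSG00000026864.13) differed most in saline PFC. There it ran from 299 to 566 CPM at 3 h (median 417) and from 248 to 310 at 4 weeks (median 299), a rise of 45.1% (log2 0.54 ± 0.09, adjusted p = 6.58e-05). The 3-h libraries were widely spread, and the lowest of them overlapped the 4-week group. In psilocybin PFC the difference was log2 0.26 (adjusted p = 0.081), in saline hypothalamus 20.8% (adjusted p = 0.235) and in psilocybin hypothalamus 4.82% (adjusted p = 0.72). The difference between the regions in the saline time effect of Hspa5 was log2 0.26 ± 0.13 and did not pass.

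Cirbp was lower at 3 h than at 4 weeks in all 4 comparisons. In saline PFC it ran from 28.1 to 53.7 CPM at 3 h (median 43.2) and from 51.3 to 73.1 at 4 weeks (median 61.3), and it fell by 30.7% relative to 4 weeks (log2 -0.53 ± 0.10, adjusted p = 0.000323). In psilocybin PFC the ranges were 37.9 to 72.8 CPM (median 47.3) and 54.6 to 72.8 (median 59.4), a log2 difference of -0.32 ± 0.10 (adjusted p = 0.0441). Leaving out 1 of 16 libraries in turn gave an adjusted p between 0.00718 and 0.105, and the call held in 4 of these, without psilocybin 3-h replicate 4 or 7, psilocybin 4-week replicate 6, or hypothalamus psilocybin 4-week replicate 5.

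In saline hypothalamus Cirbp ran from 51.2 to 72.6 CPM at 3 h (median 66.0) and from 71.9 to 97.0 at 4 weeks (median 89.3), a difference of -25.1% (log2 -0.42 ± 0.10, adjusted p = 0.0255). This call was lost in 6 of 16 leave-outs, without saline 3-h replicate 4, 7 or 8 or saline 4-week replicate 1, 4 or 8, with an adjusted p of up to 0.11. In psilocybin hypothalamus all 3-h libraries (48.4 to 78.4 CPM, median 66.0) lay below all 4-week libraries (83.8 to 145, median 88.8), a difference of -32.8% (log2 -0.57 ± 0.10, adjusted p = 0.000157). The highest value was again replicate 5, and without it the difference was log2 -0.48 (adjusted p = 0.00119). Within cages 1 to 4 and cages 5 to 8 the log2 difference of Cirbp was -0.56 and -0.50 in saline PFC, -0.39 and -0.27 in psilocybin PFC, -0.40 and -0.44 in saline hypothalamus and -0.65 and -0.49 in psilocybin hypothalamus.

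Rbm3 moved in the same direction as Cirbp but passed in 1 comparison. In saline hypothalamus it ran from 24.3 to 32.9 CPM at 3 h (median 28.0) and from 32.5 to 42.0 at 4 weeks (median 38.2), with only the edges of the groups touching, and fell by 24.0% (log2 -0.40 ± 0.08, adjusted p = 0.00409). In the other comparisons the differences were -15.6% in psilocybin hypothalamus (adjusted p = 0.0971), -12.6% in saline PFC (adjusted p = 0.141) and -8.59% in psilocybin PFC (adjusted p = 0.359). Since these are bulk tissue libraries, fewer cells of a type and less RNA per cell cannot be told apart in any of these comparisons.

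**Figure D2:**
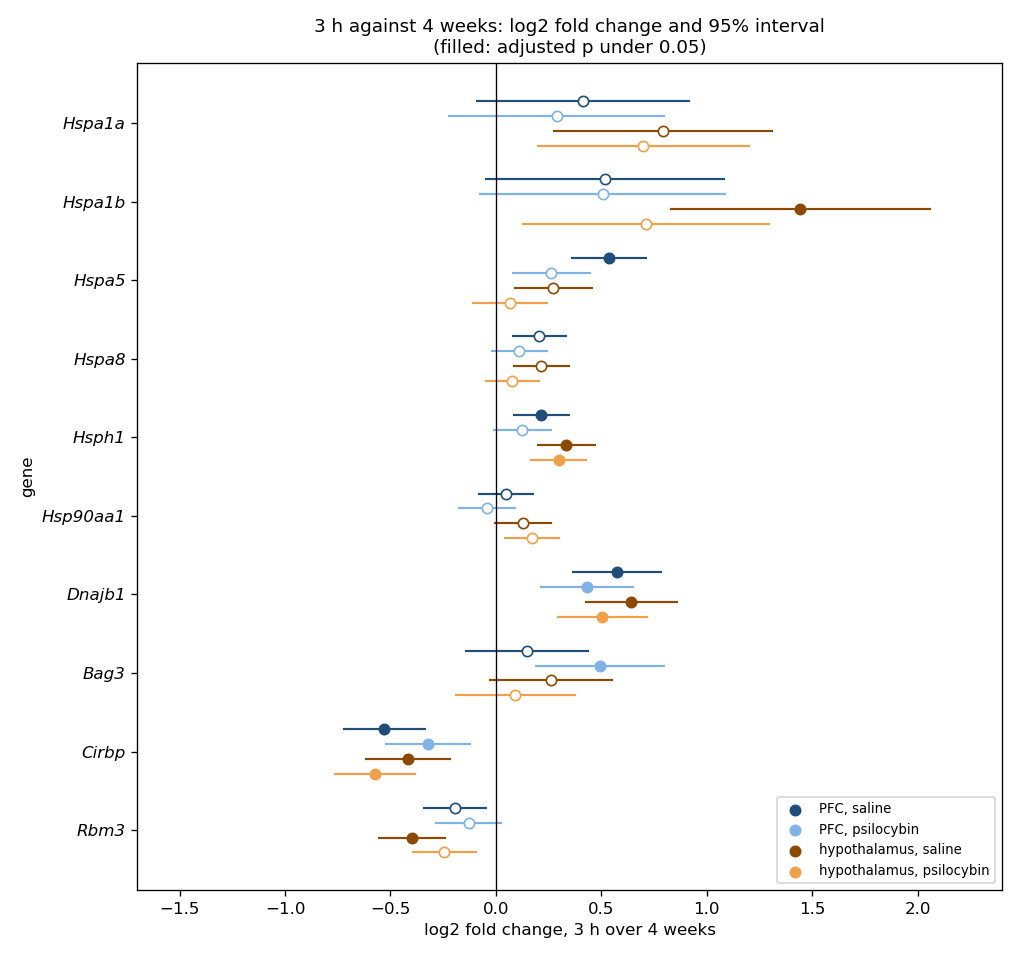
Log2 fold change of 3 h over 4 weeks for each gene (rows) with its 95% confidence interval, in 4 comparisons shown by colour. Filled points passed the adjusted threshold. Dnajb1 is filled and right of 0 in all 4 comparisons and Cirbp filled and left of 0 in all 4, and Hspa1b in saline hypothalamus lies farthest right at 1.44 with the widest interval.

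Read by direction, 3 of the 8 chaperones passed as higher at 3 h in saline PFC, where 2.39% of all genes were called higher and 2.34% lower, and 2 in psilocybin PFC (2.7% higher, 3.26% lower). In hypothalamus 3 passed as higher in saline (0.522% higher, 0.163% lower) and 2 in psilocybin (0.743% higher, 0.416% lower). No chaperone was called lower and neither RNA-binding gene was called higher at 3 h in any of the 4 comparisons. The median log2 difference of the 8 chaperones was 0.31, 0.28, 0.30 and 0.23 in these 4 comparisons in turn, and that of all genes tested lay between -0.03 and 0.01. In an additional fit chosen after seeing the data, the time effect was averaged over saline and psilocybin. In PFC 7 of the 10 genes then passed (17.1% of all genes), with Hspa5 (32.0%), Hspa8 (11.5%), Hsph1 (12.5%), Dnajb1 (41.8%) and Bag3 (24.9%) higher at 3 h and Cirbp (-25.5%) and Rbm3 (-10.6%) lower. In hypothalamus 6 passed (3.99% of all genes), with Hspa1a (67.8%), Hspa1b (111.0%), Hsph1 (24.4%) and Dnajb1 (48.8%) higher and Cirbp (-29.1%) and Rbm3 (-19.9%) lower.

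Of 41 further cytosolic and mitochondrial heat shock genes, 2 were called higher and 0 lower at 3 h in saline PFC, a share of 4.88% beside 4.72% of all genes. The counts were 4 and 0 in psilocybin PFC (9.76% beside 5.96%), 3 and 0 in saline hypothalamus (7.32% beside 0.685%) and 2 and 0 in psilocybin hypothalamus (4.88% beside 1.16%). Fkbp5, an HSP90 co-chaperone of steroid receptors that is itself induced by glucocorticoids, had the smallest p in all 4. It was higher at 3 h by 82.0% in saline PFC, 150% in psilocybin PFC, 51.1% in saline hypothalamus and 83.5% in psilocybin hypothalamus. The HSP40 gene Dnajb5 was 47.3% and 49.8% higher at 3 h in saline and psilocybin PFC, the small heat shock gene Hspb8 63.3% higher in psilocybin PFC, and the HSP90 activator Ahsa2 28.1% and 25.9% higher in saline and psilocybin hypothalamus. Hspa2, an HSP70 gene, was 35.5% higher in saline hypothalamus. This list, like those of the next paragraph, was chosen with earlier results of these data known. Its shares beside all genes are therefore not an independent test.

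Of 24 ER chaperone and unfolded protein response genes, 10 were called higher at 3 h in saline PFC (41.7% beside 4.72% of all genes), 1 in psilocybin PFC (4.17% beside 5.96%), 3 in saline hypothalamus (12.5% beside 0.685%) and 0 in psilocybin hypothalamus (1.16% of all genes), where 1 had an unadjusted p under 0.05. None was called lower in any of them. Since the list was chosen with earlier results known, these shares are not an independent test either. The transcription factor Xbp1 passed in 3 of the comparisons, at 52.2%, 30.3% and 29.4% higher, and its value in psilocybin hypothalamus was 10.5% (adjusted p = 0.3). In saline PFC the disulfide isomerase Pdia4 (55.6%) and the BiP-complex gene Sdf2l1 (88.1%) were next, and in saline hypothalamus the ER degradation gene Herpud1 (24.4%) and the BiP co-chaperone Dnajb11 (23.0%). The median log2 difference of the heat shock list was 0.10, 0.12, 0.13 and 0.03 in the 4 comparisons in turn, and that of the ER list was 0.23, 0.16, 0.11 and 0.01. Of 9 tested cold-shock domain and RBMX family genes, which include relatives of Cirbp and Rbm3, none passed in hypothalamus. In PFC 1 was called in each treatment, Rbmx (14.8% lower at 3 h) in saline and Ybx2 (53.8% lower) in psilocybin. The median log2 difference of the 9 genes was positive, at 0.12, 0.14, 0.11 and 0.02 in the 4 comparisons in turn. At an unadjusted p under 0.05 there were 3, 6, 0 and 0. None of the 9 was called for psilocybin, with 1 at an unadjusted p under 0.05, Rbmx in PFC at 3 h (10.4%, adjusted p = 0.675).

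The comparison of psilocybin with saline at the same time asked whether the drug itself moved these genes. None of the 10 genes passed in PFC at 3 h, where 0.0105% of all genes did, or in PFC at 4 weeks, hypothalamus at 3 h or hypothalamus at 4 weeks, where 0% did. DESeq2 and limma with voom also called 0 of the 10 in each. At an unadjusted p under 0.05 there were 3 of the 10 in PFC at 3 h, 1 in hypothalamus at 3 h and 0 in the others, against 1371, 337, 456 and 1823 of all genes in PFC at 3 h, hypothalamus at 3 h, PFC at 4 weeks and hypothalamus at 4 weeks.

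In PFC at 3 h, Hspa5 ran from 299 to 566 CPM in saline (median 417) and from 278 to 406 in psilocybin (median 367), with psilocybin libraries inside and just below the saline range. The difference was -16.1% (log2 -0.25 ± 0.09, 95% interval -0.43 to -0.07, adjusted p = 0.554). Hspa8 differed by -9.06% (interval of the log2 difference -0.27 to -0.01, adjusted p = 0.685) and Cirbp by 15.4% (interval 0.01 to 0.40, adjusted p = 0.687). The highest psilocybin value of Cirbp, 72.8 CPM, came from replicate 7, which also had the lowest Hsp90aa1 (428 CPM against 612 or more in the rest of its group), and no member passed when this or any other library was left out. The blood markers of that library were 955 CPM against 111 to 458 in the other libraries of its group, its hypothalamic neuron markers 6.61 against 0.938 to 3.00, its microglial markers 654 against 365 to 619 and its choroid plexus markers 22.5 against 6.01 to 20.7, and their part in these values was not tested.

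In hypothalamus at 3 h Rbm3 ran from 24.3 to 32.9 CPM in saline and from 27.2 to 37.0 in psilocybin (13.6%, log2 0.18 ± 0.08, interval 0.02 to 0.35, adjusted p = 1). Dnajb1 differed by -9.65% in PFC and -4.29% in hypothalamus at 3 h and by -0.362% and 5.36% at 4 weeks, all within the spread of the groups. For Hspa8, Hsph1 and Hsp90aa1 the 95% intervals of all 4 psilocybin differences lay between -0.27 and 0.22 on the log2 scale. Those of Hspa1a and Hspa1b reached from -0.84 to 1.10, so the low counts of this pair leave larger differences possible.

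**Figure D3:**
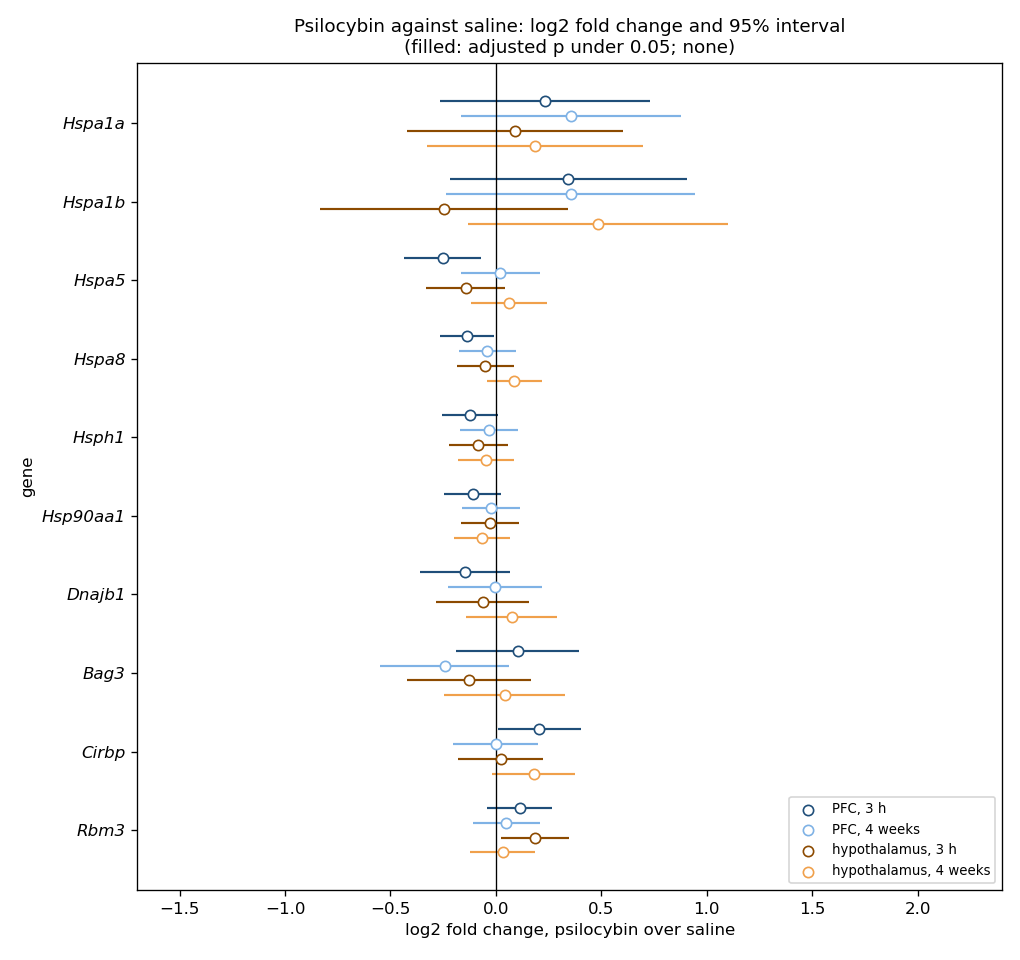
Log2 fold change of psilocybin over saline for each gene (rows) with its 95% confidence interval, at both times in both regions, on the same axis range as the plot of 3 h over 4 weeks. All points are open, none having passed the adjusted threshold, and the widest intervals are those of Hspa1a and Hspa1b.

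Of the 41 further heat shock genes 0 were called in any of the 4 psilocybin comparisons, with 2, 0, 1 and 3 at an unadjusted p under 0.05 in PFC at 3 h and 4 weeks and hypothalamus at 3 h and 4 weeks. Fkbp5 had the smallest p at 3 h, 36.5% higher under psilocybin in PFC (adjusted p = 0.172) and 26.4% higher in hypothalamus (adjusted p = 1). Of the 24 ER genes 0 were called, with 6, 1, 0 and 7 at an unadjusted p under 0.05 in the same order. The ER chaperone Hyou1 (-14.5%, adjusted p = 0.53) and the disulfide isomerase Pdia6 (-14.7%, adjusted p = 0.554) had the smallest p in PFC at 3 h. The tests of whether the psilocybin difference itself changed with time or region called 0 of the 10 genes, with 0% of all genes called, and 1 of the 10 (Hspa5 in PFC, log2 -0.27 ± 0.13) at an unadjusted p under 0.05 in the 3 tests. Whether the saline time effect differed between regions was called for 0 of the 10 genes (0.0369% of all genes), with 2 at an unadjusted p under 0.05, Hspa5 and Hspa1b (log2 -0.93 ± 0.42). The calls of Hspa1b in hypothalamus and of Hspa5 in PFC are therefore not shown to be particular to those regions.

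Between regions, 8 of the 10 genes differed in the mean of the 4 conditions, which was close to the share of all genes (76.2%). Higher in PFC were Hspa1b (71.9%, log2 0.78 ± 0.15, adjusted p = 3.81e-06), Rbm3 (49.6%, log2 0.58 ± 0.04, adjusted p = 1.31e-20) and Dnajb1 (12.2%, adjusted p = 0.00531). Higher in hypothalamus were Bag3 (PFC -39.0% relative to hypothalamus, log2 -0.71 ± 0.07), Cirbp (-31.4%, log2 -0.54 ± 0.05), Hspa5 (-22.1%), Hsp90aa1 (-18.9%) and Hsph1 (-6.08%). The 2 RNA-binding genes thus had opposite regional order. In saline mice at 4 weeks, Rbm3 ran from 46.3 to 60.3 CPM in PFC and from 32.5 to 42.0 in hypothalamus without overlap, and Cirbp from 51.3 to 73.1 in PFC and from 71.9 to 97.0 in hypothalamus with a narrow overlap. Hspa8 (-2.38%, 95% interval of the log2 difference -0.10 to 0.03) and Hspa1a (4.42%, interval -0.19 to 0.32) did not pass. The regions were extracted in separate pools and differ in their cell types, which cannot be told apart here. Of the further genes, 10 of 41 heat shock genes were called higher and 22 lower in PFC, 7 and 14 of 24 ER genes, and 4 and 5 of the 9 cold-shock domain and RBMX genes. Summed oligodendrocyte markers were 2153 to 6394 CPM in PFC and 5646 to 10390 in hypothalamus, and their part in these differences was not tested.

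Levels of several genes were correlated between the 2 regions of a mouse, most closely for Hspa5, Hsph1 and Cirbp. PFC and hypothalamus libraries with the same treatment, time and cage number were taken as the same mouse, which gave 30 mice with both. After removal of group means, Pearson's r of log2 CPM between the regions was 0.739 for Hspa5 (Spearman's rho 0.733, adjusted p = 0.0001 for both) and 0.698 for Hsph1 (rho 0.718, adjusted p = 0.00015 and 0.0001), by two-sided permutation with 100000 resamples and Benjamini-Hochberg adjustment over the 10 genes. The permutation p for Hspa5 was 1e-05, the smallest these resamples can give. Cirbp had r = 0.608 (rho 0.624, adjusted p = 0.0018 and 0.0013 by permutation).

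Without the 2 mice farthest from the median of PFC these 3 genes still passed (r = 0.674, 0.654 and 0.513), as did Bag3 (0.502). Within cages 1 to 4 (14 mice) r was 0.865 for Hspa5, 0.792 for Hsph1 and 0.565 for Cirbp, and within cages 5 to 8 (16 mice) 0.599, 0.701 and 0.429. Of the 10 genes 9 passed with Pearson's r and 5 with Spearman's rho. The permutation made no allowance for the group means removed beforehand, so its p are too small. The Pearson calls of Hspa1b, Hsp90aa1, Hspa8 and Bag3 (adjusted permutation p = 0.0403 to 0.0407) are therefore uncertain. The share of all genes that would pass in the same way was not computed. Dnajb1 (r = 0.509, rho 0.363), Hspa8 and Hsp90aa1 fell to r = 0.277, 0.237 and 0.188 without the 2 farthest mice and no longer passed. Hspa1a and Hspa1b no longer passed without them either, but r was 0.347 and 0.327, against 0.432 and 0.403 with all mice. Leaving out the most extreme PFC values also narrows the range, which can lower r by itself. For Hspa8 the rho with all mice was 0.504 and passed (adjusted permutation p = 0.0134). Both regions of a mouse fall on the same side of the split into extraction pools, and removing the pool as well as the group changed 2 calls. Rbm3, which did not pass with the group alone removed (r = 0.296, adjusted p = 0.111 by permutation), then passed (r = 0.489, adjusted permutation p = 0.0115), and Bag3 (r = 0.383) no longer did (r = 0.265, adjusted permutation p = 0.157). More means are removed with the pool, so the permutation p are too small by more there, and the call of Rbm3 is uncertain. The relations were not alike at both times. Among the 15 mice taken at 3 h r was 0.789 for Dnajb1, 0.781 for Hspa8, 0.679 for Hspa1a and 0.593 for Hspa1b, and among the 15 taken at 4 weeks it was -0.339, -0.129, 0.203 and -0.0391. For Hspa5, Hsph1 and Cirbp it was 0.85, 0.795 and 0.714 at 3 h and 0.49, 0.528 and 0.49 at 4 weeks. The difference between the times was not tested. Without the mouse of hypothalamus psilocybin 4-week replicate 5, r was 0.779 for Hspa5, 0.696 for Hsph1, 0.622 for Cirbp, 0.618 for Dnajb1 and 0.614 for Hspa8.

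**Figure D4:**
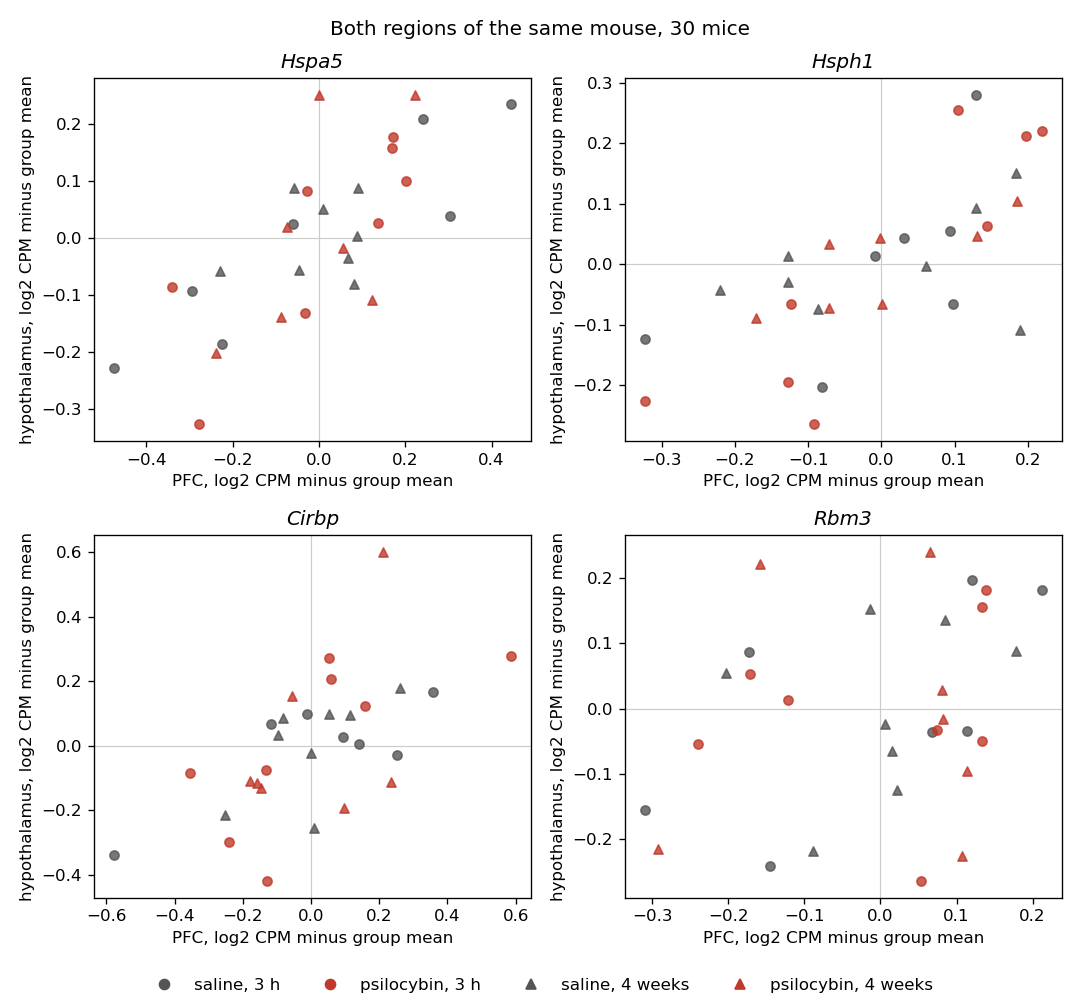
Log2 CPM minus the group mean in PFC (horizontal) and hypothalamus (vertical) of the same mouse for Hspa5, Hsph1, Cirbp and Rbm3, with 1 point for each of 30 mice, coloured by treatment and shaped by time. Points rise along the diagonal for Hspa5 (r = 0.739), Hsph1 (r = 0.698) and Cirbp (r = 0.608) and scatter widely for Rbm3 (r = 0.296).

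Within a region, 9 pairs of the genes were compared across the 31 libraries, again with group means removed, 18 tests in all by two-sided permutation. Of these, 15 passed, 8 in PFC and 7 in hypothalamus. As above, the permutation made no allowance for the removed group means, so its p are too small. The share of other gene pairs that would pass was not computed, so the count is not shown to be particular to these genes. The abundant chaperones were correlated. The cytosolic pair Hsph1 and Hsp90aa1 had r = 0.825 in PFC and 0.852 in hypothalamus (rho 0.765 and 0.833), and the ER chaperone Hspa5 and the cytosolic Hspa8 r = 0.785 and 0.729 (rho 0.779 and 0.762), with an adjusted permutation p of 3e-05 for each r. For Hspa5 and Hspa8 r lay between 0.732 and 0.831 in each extraction pool. For Hsph1 and Hsp90aa1 it was 0.528 in cages 1 to 4 of PFC, which did not pass (adjusted permutation p = 0.0649), and 0.813 in cages 5 to 8. In hypothalamus the values were 0.924 and 0.783.

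Hspa8 and Hsph1 had r = 0.863 in PFC but 0.468 in hypothalamus, where it was 0.759 without hypothalamus psilocybin 4-week replicate 5. Cirbp ran opposite to Hsph1, with r = -0.707 in PFC (rho -0.679, adjusted permutation p = 3e-05) and -0.667 in hypothalamus (rho -0.694, adjusted permutation p = 7.71e-05). The value was negative within each pool, at -0.474 and -0.542 in PFC and -0.767 and -0.483 in hypothalamus, and -0.664 and -0.7 without the 2 farthest libraries. Within pools it passed only in cages 1 to 4 of hypothalamus (adjusted permutation p = 0.00414). In the other pools the adjusted permutation p lay between 0.0533 and 0.106. Cirbp and Rbm3 were correlated in PFC (r = 0.551, rho 0.537, adjusted permutation p = 0.00218, 0.691 and 0.244 within pools). In hypothalamus r was 0.137 (rho 0.317, adjusted permutation p = 0.493), with 0.656 in cages 1 to 4 and -0.254 in cages 5 to 8. Rbm3 against Hsph1 was -0.455 in PFC (adjusted permutation p = 0.0143) and -0.247 in hypothalamus (0.201).

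The inducible genes were looser. Hspa1a and Hspa1b, which share much of their transcript sequence, had r = 0.647 in PFC and 0.621 in hypothalamus. Hspa1b and Dnajb1 had 0.418 and 0.558, with 0.192 in PFC without the 2 farthest libraries. Bag3 and Dnajb1 were uncorrelated in PFC (r = 0.0236, rho -0.0379, adjusted permutation p = 0.9) and at 0.397 in hypothalamus (rho 0.286, adjusted permutation p = 0.0318). Libraries of 1 region share composition, and all these values are relative levels within a library, in which a higher share of 1 abundant gene lowers the shares of the others.

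**Figure D5:**
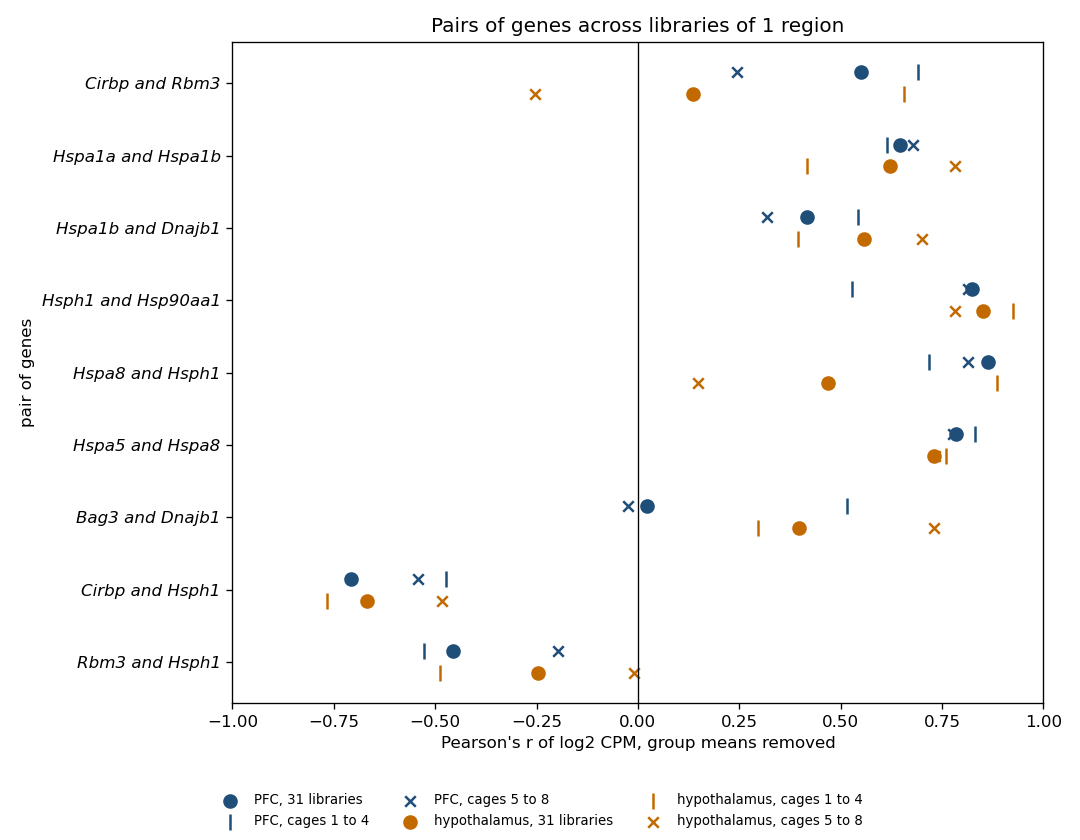
Pearson's r (horizontal, -1 to 1) for 9 pairs of genes across the 31 libraries of PFC (blue) and hypothalamus (orange) after removal of group means, with bars and crosses for the values within cages 1 to 4 and cages 5 to 8. The pairs of Hsph1 with Hsp90aa1 and Hspa5 with Hspa8 lie right of 0.7 in both regions, and Cirbp with Hsph1 lies left of -0.6 in both.

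Across all genes tested, those most like each member were sought by correlation with group and extraction pool removed, as genes among the 20 highest in both regions (31 libraries each). Hspa5 was accompanied by the ER genes Pdia6 (r = 0.903 in PFC and 0.861 in hypothalamus), Xbp1 (0.79 and 0.908), Sdf2l1 (0.814 and 0.778), Pdia4 (0.891 and 0.776) and Manf (0.759 and 0.821). Hspa8 was accompanied by the ER chaperone Calr (0.775 and 0.931), the HSP90 activator Ahsa1 (0.75 and 0.906) and the chaperonin subunit Cct7 (0.75 and 0.912), and Hsph1 by Hsp90aa1 (0.724 and 0.843), the ER HSP90 gene Hsp90b1 (0.682 and 0.727) and Hspa5 (0.679 and 0.653). Rbm3 had Col2a1 (0.614 and 0.676), and the other 6 genes had none. Without hypothalamus psilocybin 4-week replicate 5, Manf, Ahsa1, Cct7 and Col2a1, and Hspa5 for Hsph1, were no longer named, at most 5 being named for a gene. Calr joined for Hspa5, Hsp90b1 for Hspa8, Hspa8 and Hsph1 were each other's closest (0.777 and 0.801), and Hspd1 joined for Hsp90aa1 (0.827 and 0.878) and Eml2 for Cirbp (0.668 and 0.852).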

How the data were processed

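The deposited values are counts of reads per gene. Per the paper's methods and the submitters' processing notes, the authors sequenced stranded mRNA libraries with 52-base paired ends, converted them with bcl2fastq 2.20.0, aligned them with STAR 2.7.2b to GRCm38 and counted genes with featureCounts 1.6.2. Groups came from the labels. Here counts were fitted in R 4.3.3 with edgeR 4.0.16 (TMM, filterByExpr by group, robust quasi-likelihood test) in 1 model of group plus extraction pool over 62 libraries with at least 1000000 counts, with Benjamini-Hochberg adjustment over 18971 genes and a threshold of 0.05. DESeq2 1.42.0 and limma 3.58.1 (voom with quality weights, mouse as a random block, consensus correlation 0.0282) were alternatives. The second followed the procedure of the study, except that a library excluded by the study was kept. Correlations used log2 CPM. Scripts were tested on simulated data. The members and gene lists were chosen with earlier results of these data known. All 10 members are named. Of each list, up to 3 called genes with the smallest p are named per comparison, or up to 2 where none was called. Replicate numbers are cage numbers in the labels, each cage giving 1 mouse per treatment and time. Deviations of same-cage libraries had a mean correlation of 0.0674 in PFC and 0.0614 in hypothalamus (lowest -0.241 and -0.234), and regions of 1 mouse were matched by treatment, time and cage, which is inferred from the labels. Other alternatives were no filter on low counts, other scaling, no pool term, cage or animal as a block, only the groups compared, each pool alone, all 64 libraries and each library left out in turn. The library that the study's methods exclude for wound healing and immune genes is not identified in the labels and was kept. Positions and shared windows came from an earlier GENCODE release of the same build than the one used for counting. Symbols were matched for 55141 of 55401 gene identifiers. Replicates of a group differed by more than sampling noise in all 210 pairs. A gene such as Hspa1b with as few as 6 counts in a library has far wider error than Hspa8 with at least 8993.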

Additional observations from a re-analysis of the deposited data

Results flagged for a closer look

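Among 80 combinations of a gene and a group, 8 had a highest or lowest library set apart from the rest of its group by more than Dixon's 95% limit, which chance exceeds in about 1 of 20 groups. Of the 8, 4 were the same library, hypothalamus psilocybin 4-week replicate 5, with 6.004 CPM of Hspa1a (group median 1.7), 5.341 of Hspa1b (1.95), 1548 of Hspa8 (1048) and 145.3 of Cirbp (88.8). It also had the highest Dnajb1 (65.7 CPM) and Bag3 (19.4) of its group and the lowest Hsp90aa1 (646), so its high values included both chaperones and Cirbp. The part of its marker levels in these values was not tested. The PFC library of the same mouse had 988 CPM of Hspa8 and 71.5 of Cirbp. PFC psilocybin 3-h replicate 7 had 427.9 CPM of Hsp90aa1 (median 660) and 72.82 of Cirbp (47.3). The other 2 were 725.5 CPM of Hsp90aa1 in hypothalamus saline 4-week replicate 6 (median 789) and 51.22 CPM of Cirbp in hypothalamus saline 3-h replicate 4 (median 66.0).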

How the results depend on the processing

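Counts of the 10 genes called at 3 h against 4 weeks (4 in saline PFC, 3 in psilocybin PFC, 5 in saline hypothalamus, 3 in psilocybin hypothalamus) depended on the settings. In saline PFC they were 2 with all 64 libraries and 0 in cages 5 to 8 only. In psilocybin PFC they were 5 with voom and limma, 1 with no filter on low counts, 1 without extraction pool, and 0 in cages 1 to 4 or 5 to 8 only. In saline hypothalamus they were 8 with voom and limma, 8 with only the groups compared, 3 with no filter, 1 in cages 1 to 4 and 0 in cages 5 to 8. In psilocybin hypothalamus they were 6 with voom and limma, 0 with only the groups compared, 1 in cages 1 to 4 and 0 in cages 5 to 8. A fit to 1 pool holds fewer libraries, and the cause of the other changes was not tested. The shares of all genes called under these settings were not compared, so the changes are not shown to be particular to the members. Averaged over treatments the counts were 7 in PFC and 6 in hypothalamus. Leaving out 1 library gave 3 to 5, 1 to 4, 4 to 6 and 3 to 5 in the same order (in psilocybin PFC 1 without 3-h replicate 1, 2 or 5 or 4-week replicate 1, 2, 4, 5, 7 or 8, and in psilocybin hypothalamus 5 without 4-week replicate 5), 8 to 9 for the regions, and 0 in every psilocybin comparison and interaction. With the cage as a replicate block 3 were called in saline PFC, Hsph1 being lost (adjusted p = 0.0676), and the paired fits (cage, or animal between regions) changed no other call of a named gene. The same-mouse correlations passed for 9 genes, and for 4 without the 2 farthest mice, 4 in cages 1 to 4, 1 in cages 5 to 8 and 5 without the mouse of hypothalamus psilocybin 4-week replicate 5. The pair correlations passed for 15, and for 9 within each pool. The sign turned for Bag3 and Dnajb1 in PFC (-0.0158 without the 2 farthest libraries, -0.0246 in cages 5 to 8) and for Cirbp and Rbm3 in hypothalamus (-0.254 in cages 5 to 8). In simulated counts DESeq2 made more false calls than edgeR.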
